A study of Homo sapiens with 12 samples.

Results

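DEAD and DEAH box RNA helicases were read out in the input RNA of DLD1 cells, an established epithelial line of human colorectal cancer. The members are the protein-coding genes whose symbol is DDX or DHX followed by a digit, with DDX10, DDX18 and DDX21 left out. This rule uses names only and gave 52 genes, 36 named DDX and 16 named DHX, of 19847 protein-coding genes and 58302 genes in the table. The study compared DLD1 cells at passage 5 that carried a control hairpin (shNC) with cells that carried a hairpin against NAT10 (shNAT10); NAT10 is the acetyltransferase that makes N4-acetylcytidine (ac4C) in RNA. Fragmented total RNA was sequenced before (input) and after pull-down with an ac4C antibody, with 3 replicates of each hairpin and fraction, 12 libraries in all. The labels do not say whether a hairpin line was 1 clone or whether replicates came from separate cultures, so the spread between these libraries may be technical. The p-values of the fit below rest on that spread, taken mostly from genes of like level. Levels came from the 6 input libraries. The pulled-down libraries entered only through the authors' deposited table of differential ac4C peaks.

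Helicases of these families bind RNA and ATP through a pair of RecA-like domains, and are named after the amino acids Asp-Glu-Ala-Asp or Asp-Glu-Ala-His in the motif that takes part in ATP hydrolysis. DEAD box proteins mostly pull short duplexes apart locally or clamp RNA, while DEAH box proteins mostly move along a strand. In all human cells they drive the rearrangements of the spliceosome, the maturation of ribosomal RNA, and the export, translation and decay of mRNA, and some sense viral RNA.

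FPKM is the number of sequenced fragments scaled by transcript length and library size, so it can be set against other genes of a library. Its sum over all genes was 468920 to 532596 in shNC and 556564 to 712302 in the libraries labelled shNAT10, so 1 unit is not the same share of RNA in each library. Of the 52 helicases, 43 were above 0 in at least 1 input library, and 9 were listed at 0 in all 6. A mean of at least FPKM 1 over the 6 libraries was reached by 37, which are the tested helicases below. DDX11 (mean 1.48) and DHX34 (1.92) lay just inside this limit, and DDX41 (0.788) and DDX19B (0.366) just outside. The other helicases that were above 0 but below the limit were DDX3Y, DDX6, DDX55 and DHX33.

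NAT10 itself checks the labels. It stood at FPKM 1.24, 3.95 and 2.89 in shNC replicates 1 to 3, against 0, 28.1 and 31.4 in libraries labelled shNAT10, so replicates 2 and 3 of the latter lay above every shNC library. Every direction below is therefore that of the label. For mitochondrial mRNAs of RefSeq length, the authors' FPKM values were whole multiples of what 1 fragment is worth (within 6.91e-11 fragments), which gave denominators of 3284599 to 3426872 fragments in shNC against 1197889 to 1498313 in libraries labelled shNAT10, and the shNC mean was 2.47 times the other. Markers of the labelled epithelium (EPCAM, KRT8, KRT18, KRT19, CDH1, CDX2, VIL1) were above 0 in all 6 libraries, with summed FPKM of 5026 to 5384 in shNC against 8107 to 8583 in libraries labelled shNAT10. KRT8 carried most of that sum, at 3112 to 3774 against 5573 to 5866. KRT8, KRT18 and KRT19 lay higher without overlap, where 2.89% of all tested genes did so. EPCAM lay lower without overlap, at 226, 370 and 262 against 38.3, 80.3 and 128 (limma adjusted p = 0.754), where 6.72% of all tested genes did so. VIL1 and CDX2 had differences of -0.54 and -0.57, and none of the 7 passed. No marker of fibroblasts, leukocytes, endothelium or neural cells reached a mean of FPKM 1: 9 of 15 were above 0 somewhere, and the highest summed level of such a list in any library was 6.73, for fibroblasts. CD3E, LYZ, PECAM1, CDH5 and SYP were among those at 0 in all 6. Their part in the results was not tested.

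DDX17, a transcription and splicing cofactor, had the most differential ac4C peaks among the helicases, with 3 in the authors' deposited table. Peaks that did not differ between the hairpins are not known here. The peak nearest its start spanned chr22:38505988-38506287 (GRCh38, minus strand). Its first 26 bases lie within the RefSeq promoter window, as bases 25 to 50 after the RefSeq start of the gene (GRCh38.p14), and are shown because this was the one helicase peak that reached such a window. Capitals mark bases inside the peak, written 5′ to 3′ on the strand of the gene at chr22:38506262-38506287.
DDX17: GGAAGGAGACGCCTAAACCGCGGCAC
The stretch held 65.4% G and C, and 43.3% of 35116 RefSeq promoter windows had at least as much in the same 26 bases. The motif named in the header of the authors' deposited table, CNNCNNCNNCNN in the letters used here, had no full copy on either strand of it. On the other strand all C letters of a copy lay in the stretch, but its last base fell past the edge. A full copy was in this stretch in 12.04% of windows on the strand of the gene and in 27.2% on either strand. All 5 motif sites that the authors' deposited table lists for DDX17 lay further in, 128 to 227 bases from the RefSeq start and inside the same peak. The remaining 274 bases of the peak were not read here.

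No helicase passed the comparison of input levels between the hairpins. Differences are means of log2(FPKM + 1) in the libraries labelled shNAT10 minus shNC, fitted with limma over 10517 genes and adjusted by Benjamini-Hochberg. The count that passed at 0.05 was 0 of 37 helicases, and 0 were under 0.05 before adjustment, where the limma adjusted p ran from 0.754 to 0.997. Over all genes tested 20 passed (0.19%), 0 of them protein-coding, and 389 (3.70%) were under 0.05 before adjustment. The fit placed 17 helicases higher and 20 lower, with a median difference of -0.03 beside -0.49 over all tested genes and -0.47 over 8140 tested protein-coding genes. The lower share was 54.1% of helicases and 58.8% of all genes. Standard errors ran from 1.28 to 1.89, a size that rests mostly on the spread of genes of like level, since the fit had 212.6 prior degrees of freedom. The gap between the helicase median and that of all genes, 0.46, was -0.05 and -0.08 without replicate 1 or 2 labelled shNAT10 and 0.05 without shNC replicate 3. Without both replicates 2 and 3 labelled shNAT10, 1 library of that label remained, assumed to vary like the shNC libraries. The helicase median was then -0.95, beside -1.12 over all genes, and 0 of 9745 genes passed, so this fit bears on values and not on calls. The plot of differences with their intervals gives every tested helicase. In bulk RNA, fewer cells with a transcript and less of it per cell cannot be told apart.

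**Figure D1:**
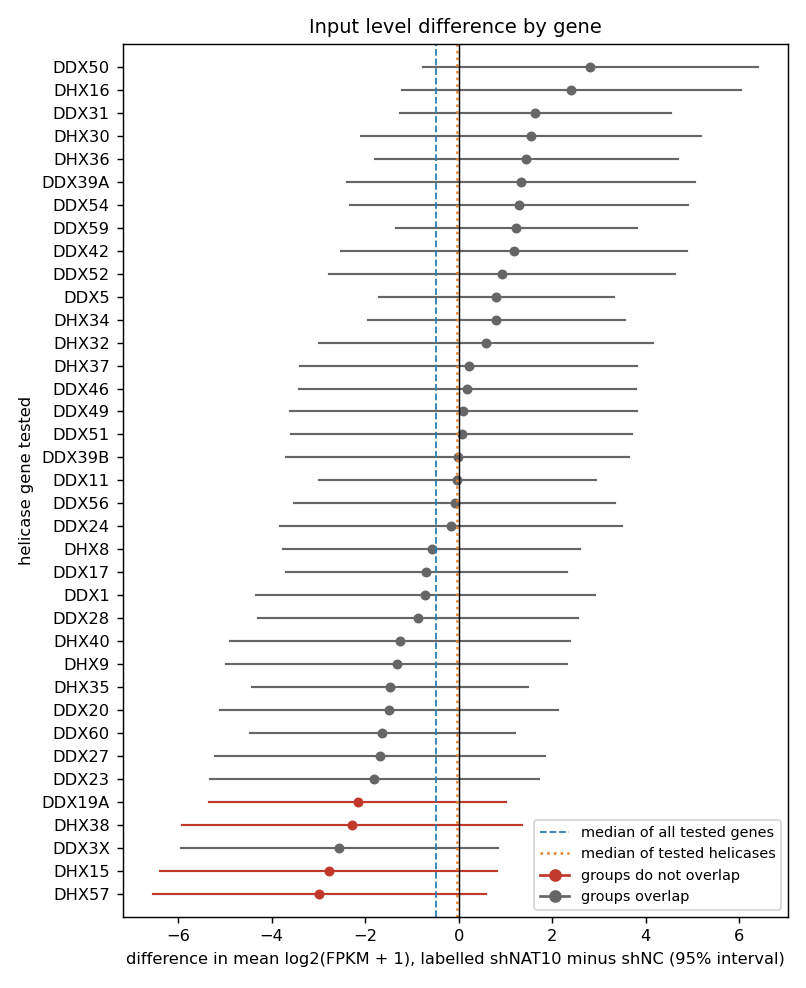
Difference in mean log2(FPKM + 1), labelled shNAT10 minus shNC (x axis), for the 37 tested helicases (y axis), with limma's 95% interval as a bar and 3 libraries per group. Every interval crosses 0, from DHX57 at -2.98 to DDX50 at 2.82, and the 4 helicases drawn in red are those whose groups do not overlap.

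The spread between replicates was the main feature of the helicase levels. The SD within groups on the log2 scale had a median of 1.77 over the tested helicases, from 0.58 for DHX8 to 3.02 for DHX16, beside 1.74 over tested protein-coding genes. In the plot of levels by library, many helicases are bright in some libraries and at 0 in others of the same hairpin. Fragments were recovered for 34 helicases above 0 in at least 3 libraries. They are the smallest whole counts that fit the values, so true counts may be a multiple of them. By these counts, 28 had at least 100 fragments in an shNC library, and 9 of 28 were listed at 0 in another shNC replicate. Among the libraries labelled shNAT10 the count was 9 of 21. Helicases with more zeros, such as DDX60 and DHX35, are outside these counts. A value of 0 is thus given here as listed, without a fold. Library totals varied less. Summed helicase FPKM was 351, 361 and 358 in shNC against 426, 402 and 507 in libraries labelled shNAT10. As a share of all FPKM of a library this was 0.0678%, 0.0678% and 0.0764% in shNC against 0.0737%, 0.0723% and 0.0711% under the other label, and these shares overlapped. The number of helicases above 0, of all 52, was 32, 32 and 28 in shNC and 23, 30 and 26 under the other label. Of the tested helicases, 81.1%, 86.5% and 67.6% were above 0 in shNC and 59.5%, 70.3% and 67.6% under the other label. Among tested coding genes it was 71.4% to 72.0% in shNC and 56.6% to 64.4% under the other label.

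**Figure D2:**
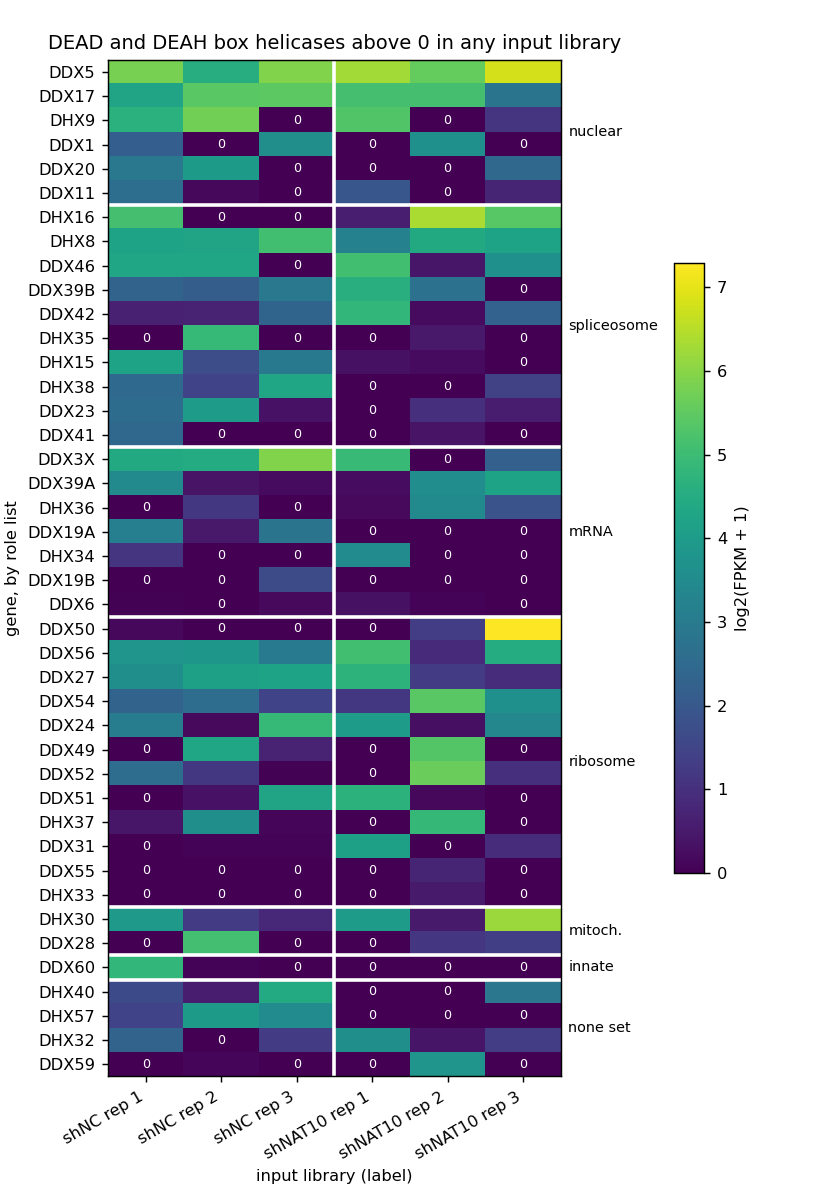
Level of each helicase as log2(FPKM + 1) (colour scale) in the 6 input libraries (columns), grouped by role (right), for 42 helicases above 0 in at least 1 library; DDX3Y is left out, and 0 marks a value listed at 0. DDX5 is high in every column, while the brightest cell, DDX50, is in 1 library only.

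The 10 helicases above 0 in every library were DDX5, DDX17, DHX8, DHX30, DDX56, DDX27, DDX54, DDX24, DDX39A and DDX42. They make 27.0% of the tested helicases, beside 24.2% of tested protein-coding genes. A single library held over 50% of the summed FPKM for 26 of 37 helicases (70.3%), beside 70.9% of tested protein-coding genes. The share in the highest library had a median of 61.2% for helicases and 64.3% for protein-coding genes, and ran from 24.3% for DDX17 to 99.8% for DDX60. Over 90% came from 1 library for 7 helicases (18.9%, beside 25.2% of tested protein-coding genes), DDX28, DDX31, DDX50, DDX59, DDX60, DHX34 and DHX35. The plot of highest-library shares sets both groups side by side.

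**Figure D3:**
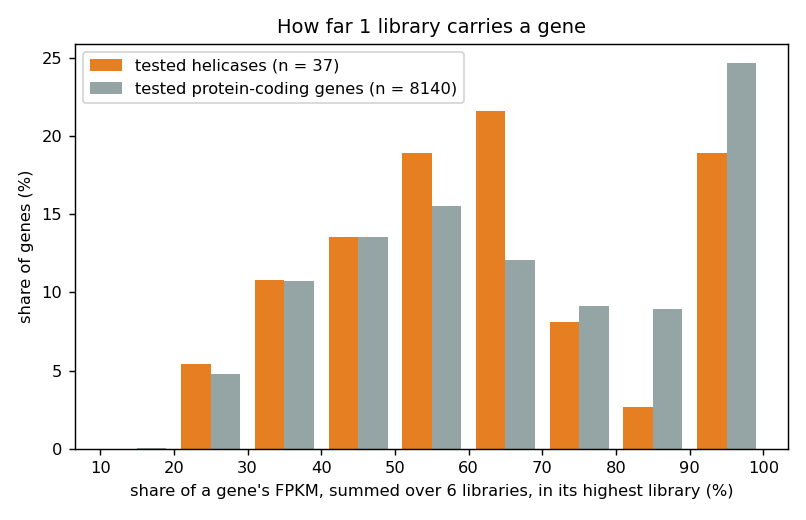
Share of a gene's FPKM, summed over the 6 input libraries, that came from its highest library (x axis, %), as the share of genes in each bin (y axis, %), for 37 tested helicases and 8140 tested protein-coding genes. Helicase shares ran from 24.3% to 99.8%, with 70.3% of helicases and 70.9% of coding genes above 50%.

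Groups did not overlap for 4 helicases, DHX57, DHX15, DHX38 and DDX19A, each with all 3 libraries labelled shNAT10 below every shNC library. They are 4 of 37, where 6.72% of all tested genes had such a pattern. In the opposite direction there were 0 of 37, beside 2.89% of all tested genes. None of the 4 passed limma's test.

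Among nuclear helicases and transcription cofactors, DDX5 and DDX17 had the highest mean levels of all 52. DDX5 (ENSG00000108654, chr17:64498254-64506866, also p68) had FPKM 55.0, 22.4 and 58.9 in shNC against 76.8, 46.7 and 111 in libraries labelled shNAT10, from 1361, 538 and 1478 and from 781, 512 and 977 fragments. That is 45.4 ± 20.1 (SD, n = 3) against 78.3 ± 32.4 (SD, n = 3), a difference of 0.80 (SE 1.28, limma adjusted p = 0.817). The groups overlapped, since the lowest library labelled shNAT10 lay below the shNC libraries at 55.0 and 58.9. DDX17 (ENSG00000100201, chr22:38483438-38506311), the close paralog of DDX5 that works beside it, had FPKM 18.2, 41.8 and 43.1 in shNC against 34.1, 34.1 and 6.01 in libraries labelled shNAT10. Its difference of -0.69 (SE 1.52) rested on the last library, and without that library it was 0.08. Reads from such paralogs can be split by the counting, so their separate levels are uncertain to that extent.

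DHX9, RNA helicase A, which opens long duplexes and structured RNA, varied far more. It was listed at FPKM 24.2, 52.9 and 0 in shNC against 38.6, 0 and 1.18 in libraries labelled shNAT10, with 2 high libraries in shNC, 1 under the other label, and 1 at 0 under each. The difference was -1.32 (SE 1.85), from -3.06 to -0.18 with 1 library left out, and it was 1.84 without replicates 2 and 3 labelled shNAT10. DDX20, or Gemin3, is part of the SMN complex that loads Sm proteins on small nuclear RNAs, and was at 6.63, 14.8 and 0 against 0, 0 and 4.44. DDX1, of the tRNA ligase complex, and DDX11, a DNA helicase of sister chromatid cohesion, had means of 4.40 and 1.48. All 6 genes of this list were tested, with 1 fit higher and 5 lower, a median of -0.70 and 0 that passed.

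Spliceosome helicases were all above 0 in at least 1 library, 10 of 10. Of the 9 tested, the fit was higher for 3 and lower for 6, with a median difference of -0.58 and 0 that passed. DHX8, the human Prp22, releases spliced mRNA from the spliceosome and had the smallest spread within groups of any tested helicase. Its FPKM was 17.8, 18.3 and 32.8 in shNC against 8.12, 20.3 and 17.9 in libraries labelled shNAT10, from 560, 558 and 1045 and from 105, 283 and 199 fragments. The means of 22.9 ± 8.52 (SD, n = 3) and 15.4 ± 6.44 (SD, n = 3) differed by -0.58 (SE 1.61, limma adjusted p = 0.914), and the groups overlapped.

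DHX16, the human Prp2, which readies the spliceosome for the first step of splicing, had the largest spread within groups of the tested helicases. Its FPKM was 34.4, 0 and 0 in shNC against 0.539, 81.8 and 41.0 in libraries labelled shNAT10. The high values fell in 1 library of shNC and 2 of the other label. The difference was 2.41 (SE 1.84, limma adjusted p = 0.754), and without those last 2 libraries it was -1.09. DDX46, the human Prp5, acts when the U2 particle meets the branch site, and had 19.04, 18.5 and 0 against 32.7, 0.362 and 11.6, a difference of 0.19 (SE 1.82).

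DHX15 and DHX38 were lower in every library labelled shNAT10. DHX15 (chr4:24527475-24584554), the human Prp43, takes the spent lariat spliceosome apart, and had FPKM 17.7, 2.28 and 6.76 in shNC against 0.264, 0.164 and 0 in libraries labelled shNAT10, from 489, 61 and 189 against 3, 2 and 0 fragments. The difference of -2.78 (SE 1.83, 95% interval -6.39 to 0.83) had a limma adjusted p of 0.754. DHX38 (chr16:72093847-72112912), the human Prp16, acts before the second step of splicing, and had 4.60, 1.77 and 18.9 against 0, 0 and 1.71. Its highest value labelled shNAT10, from 13 fragments, lay close below its lowest in shNC, from 37, and the difference was -2.28 (SE 1.84). The remaining tested members DDX23, DDX39B, DDX42 and DHX35 had differences of -1.80, -0.02, 1.19 and -1.46, and DDX41 was not tested.

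Helicases of mRNA export, translation and decay numbered 10, of which 8 were above 0 and 5 tested. The fit was higher for 3 and lower for 2, with a median of 0.80 and 0 that passed. DDX3X, which helps ribosomes start on structured leaders, was the most abundant, at FPKM 20.7, 21.2 and 59.3 in shNC against 29.2, 0 and 3.74 in libraries labelled shNAT10. The first library labelled shNAT10 lay inside the shNC range, and the others were below it at 0 and 40 fragments beside 623 to 1813 in shNC. The difference was -2.55 (SE 1.72, 95% interval -5.95 to 0.84, limma adjusted p = 0.754). DDX3P1, a processed pseudogene of the DDX3 genes, was listed at 34.7 in shNC replicate 2 and at 0 elsewhere, so reads may have been shared with it there.

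DDX19A (chr16:70346903-70373383), which frees mRNA from export factors at the nuclear pore, was at FPKM 7.80, 0.425 and 6.0 in shNC, whereas each of the libraries labelled shNAT10 listed it at 0. The shNC values came from 208, 11 and 162 fragments. At the shortest length that fits, 3 fragments would have given FPKM 0.254 to 0.318 in the libraries labelled shNAT10, a limit that covers counting error only. Its difference of -2.15 (SE 1.61) had a limma adjusted p of 0.754. Its near-identical neighbour DDX19B was above 0 in 1 library, at 2.19 in shNC replicate 3, and reads could have been split between the pair. DDX39A, an export helicase, DHX36, which unwinds G-quadruplexes, and DHX34, of nonsense-mediated decay, had differences of 1.33, 1.45 and 0.80. DDX6, which represses and helps decay mRNA in P-bodies, had at most FPKM 0.252 in any library, and DDX25 and DHX29 were listed at 0 in all 6.

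Ribosome assembly helicases were 13, of which 12 were above 0 and 10 tested, 7 with a higher fit and 3 with a lower one. Their median difference was 0.16, 0 passed, and no member had groups that did not overlap. The summed FPKM of the list was 41.4, 67.4 and 74.4 in shNC against 115, 163 and 201 in libraries labelled shNAT10. DDX50 alone supplied 155 of the 201, and DDX52, DDX54 and DDX49 supplied 48.7, 42.2 and 39.4 of the 163. These sums are not scaled to the FPKM totals of the libraries, which were higher under that label. Sums of the spliceosome list overlapped, at 108, 88.4 and 69.4 in shNC against 91.7, 110 and 76.6. DDX50 (chr10:68901315-68946847), a nucleolar helicase, had FPKM 0.110, 0 and 0 in shNC against 0, 1.49 and 155 in libraries labelled shNAT10, from 1, 0 and 0 against 0, 6 and 501 fragments. The value of 155 was the highest of any helicase in any library and made up 99.0% of the gene's summed FPKM. The difference of 2.82 (SE 1.82, limma adjusted p = 0.754) was the highest of the helicases, and the groups overlapped at 0.

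DDX56 and DDX27, both nucleolar helicases of the large subunit, were above 0 in all 6 libraries. DDX56 had FPKM 13.01, 13.5 and 7.25 in shNC against 32.9, 0.820 and 21.8 in libraries labelled shNAT10, where values lay on both sides of the shNC range. Its difference was -0.08 (SE 1.74). DDX27 had 11.4, 16.6 and 17.8 against 25.1, 1.47 and 0.918, with shNC libraries close together and the others on either side, and a difference of -1.68 (SE 1.79). DDX54, of the same list, had 4.03, 5.11 and 1.79 against 1.28, 42.2 and 11.7, a difference of 1.29 (SE 1.83), which was -0.95 without replicates 2 and 3 labelled shNAT10.

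DHX37 releases the U3 small nucleolar RNA from the precursor of the small subunit. Its FPKM was 0.357, 11.5 and 0.088 in shNC against 0, 27.8 and 0 in libraries labelled shNAT10. So 1 library of each hairpin carried the gene, with at least 125 and at least 138 fragments. The difference was 0.21 (SE 1.83). The other tested members of the list were DDX24, DDX31, DDX49, DDX51 and DDX52, with differences of -0.17, 1.64, 0.10, 0.07 and 0.93. DDX47 was listed at 0 in all 6 libraries, and DDX55 and DHX33 were above 0 in 1 library each.

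The 2 mitochondrial helicases were both tested. DHX30, which takes part in assembly of the mitochondrial ribosome, had FPKM 14.3, 1.42 and 0.791 in shNC against 14.96, 0.431 and 71.5 in libraries labelled shNAT10. Replicate 1 was thus alike under both labels, while the highest library held 69.2% of the gene's summed FPKM, and the difference was 1.55 (SE 1.84), from 0.24 without replicate 3 to 3.07 without replicate 2 labelled shNAT10. DDX28, also of mitochondrial ribosome assembly, had 92.4% of its summed FPKM in shNC replicate 2, and a difference of -0.87.

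Sensors of viral RNA and germ cell helicases were nearly all at 0. DDX58, which encodes RIG-I, DHX58, which encodes LGP2, and DDX60L were listed at 0 in all 6 libraries. DDX60, an interferon-induced antiviral factor, had FPKM 27.5 and 0.045 in shNC replicates 1 and 2 and 0 in the other 4 libraries, a difference of -1.63 (SE 1.44, limma adjusted p = 0.754). DDX4, the germ line helicase Vasa, and the testis-restricted DDX43 and DDX53 were at 0 throughout. Other genes also had zeros beside high values here, so these lists are described as listed at 0.

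The 4 helicases without an assigned role had 2 higher and 2 lower fits. DHX57 (ENSG00000163214, chr2:38797729-38875934) had FPKM 1.74, 14.6 and 10.5 in shNC, from 47, 382 and 286 fragments, while all 3 libraries labelled shNAT10 had it at 0. At the shortest length that fits, 3 fragments would have given 0.251 to 0.314 there. Its difference of -2.98 (SE 1.81, 95% interval -6.54 to 0.58, limma adjusted p = 0.754) was the lowest of the helicases. DHX40 had 2.14, 0.461 and 20.8 against 0, 0 and 6.47, a difference of -1.25 (SE 1.84), which was -0.13 without shNC replicate 3 and -2.22 without replicate 3 labelled shNAT10, and its groups overlapped. DHX32 had 4.04, 0 and 1.404 against 11.5, 0.338 and 1.48, a difference of 0.59 (SE 1.81). DDX59 had 99.5% of its summed FPKM in shNAT10 replicate 2.

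Differential ac4C peaks lay in 8 helicase genes, DDX17, DDX20, DDX56, DHX8, DHX30, DHX32, DHX37 and DHX38, with 10 peaks among 2364 in the authors' deposited table. These are 21.6% of the 37 tested helicases, near the 19.1% of tested protein-coding genes with a peak. Among helicases at or above their own median level it was 5 of 19 (26.3%), beside 24.1% of 4100 coding genes at that level. Over all genes above 0 in any library the shares were 18.6% of 43 helicases and 15.4% of 11442 coding genes. Fold enrichment is the authors' own value for each peak, with its scaling not stated, and the numerator of their log2 change between hairpins is not stated, so its sign gives no direction here. Of the helicase peaks in the authors' deposited table, 5 had a positive log2 change and 5 a negative one, and 61.7% of all its peaks were negative.

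Peak positions are outer limits, since a peak can be split over exons, and the parts of a helicase peak summed to a median of 181 nt. DDX17, the only helicase with several peaks, had peaks of both signs. In the authors' deposited table its peak at chr22:38493747-38494354 had a fold of 8.38 and a log2 change of 7.93, the largest in size among the helicases. The peak at chr22:38495814-38498141 had a fold of 1.68 and a log2 change of -2.64 in the authors' deposited table. The peak at the start of the gene, whose edge is printed above, had a fold of 3.17, a log2 change of -0.69, the smallest in size, and 5 listed motif sites in the authors' deposited table. Genes with 3 or more peaks were 62 in the authors' deposited table, 3.21% of those with a peak.

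Other helicase peaks with a positive log2 change in the authors' deposited table lay in DHX32, DHX30, DHX37 and DDX20. The authors' deposited table gave the DHX32 peak (chr10:125853966-125854145, coding sequence) a fold of 19.6 and a log2 change of 6.49. For the DHX30 peak (chr3:47846657-47846836, coding sequence) the authors' deposited table had a fold of 2.64 and a log2 change of 4.96. The authors' deposited table placed the DHX37 peak (chr12:124953928-124954167, exon) at a fold of 5.03 and 4.64, and the DDX20 peak (chr1:111765860-111766100, coding sequence) at 10.7 and 2.69. The last 2 were the weakest of the 4 by FDR in the authors' deposited table, at 0.0363 and 0.0437.

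Negative log2 changes stood in the authors' deposited table for DHX8, DDX56 and DHX38, beside the 2 DDX17 peaks. The DHX8 peak (chr17:43491193-43492782, exon) had a fold of 8.94 and a log2 change of -5.26 in the authors' deposited table. The DDX56 peak (chr7:44568204-44569764) was the one helicase peak given the feature 3′ UTR, with 2.62 and -5.07 in the authors' deposited table. It had 4 parts, and the middle of its outer limits lay 60.8% along the gene from the 5′ end. Whether these parts lie in the 3′ UTR of the main transcript was not tested. The DHX38 peak (chr16:72097724-72098766, coding sequence) had the highest fold among helicases, 25.3, with -4.27 in the authors' deposited table. Its deposited FDR of 0.0178 was the weakest of the negative helicase peaks. Of the helicases whose input groups did not overlap, only DHX38 had a peak, and 4 of the 8 genes with a peak were above 0 in all 6 input libraries. The plot of deposited log2 changes shows the 10 peaks by size.

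**Figure D4:**
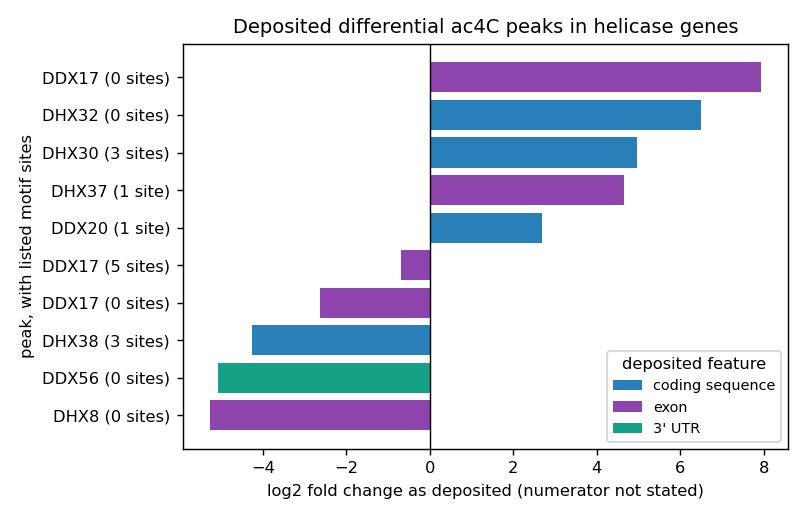
Log2 fold change of the 10 helicase peaks as given in the authors' deposited table (x axis; numerator not stated), with the number of listed motif sites in the label (y axis) and the deposited feature as colour. The bars run from -5.26 (DHX8) to 7.93 (DDX17), 5 on each side of 0.

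Listed motif sites were in 5 of the 10 helicase peaks, 13 in all, and 62.6% of all peaks in the authors' deposited table have at least 1. Site density, as sites per kilobase of peak, was 6.27 in helicases and 5.62 over all peaks of the authors' deposited table. The median fold of helicase peaks was 6.71 (1.68 to 25.3) beside 10.5 for all peaks of the authors' deposited table. The feature given was exon for 5 peaks, coding sequence for 4 and 3′ UTR for 1, where coding sequence made up 59.5% and exon 15.4% of the authors' deposited table.

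RNA helicases that the name rule does not take in, such as the EIF4A translation factors and SNRNP200 of the spliceosome, were read in the same way. The rule goes by symbol, so some of them, such as the EIF4A genes, are DEAD or DEAH box proteins too. Of 21 listed, 20 were in the table and 15 tested, of which 0 passed limma's test and 0 were under 0.05 before adjustment. The fit was higher for 5 and lower for 10, with a median difference of -0.33 and a range of -2.33 to 3.34. Groups did not overlap for SNRNP200 and ASCC3, which were higher, and AQR, which was lower, 3 of 15 where 2.89% of all tested genes were higher and 6.72% lower in this way. A deposited peak lay in 7 of the 15, beside 19.1% of tested protein-coding genes. Whether they differ from the genes that the name rule takes in was not tested.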

How the data were processed

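The members, role lists and rules were chosen with earlier results of these data known. The authors deposited gene levels in FPKM, and a peak table that, per the file headers, holds a fold (ratio) enrichment, log10 p-values and FDR, and a log2 change between hairpins. Per the submitters' processing notes, cutadapt 2.5, HISAT2 2.1.0 and HOMER 4.10.4 were used, with builds GRCh38 and GRCm38 and no roles stated. Peaks were read as GRCh38, since 10 of 10 helicase peaks lay within their RefSeq gene. Not given in the sources used here were the peak caller, the counting tool and the strand of counting. The columns headed sh were assigned to the shNAT10 inputs by elimination.

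Genes with a mean of at least FPKM 1 entered a fit by limma 3.58.1 (R 4.3.3; lmFit, then eBayes with trend) on log2(FPKM + 1), a scale that understates the change of low genes, and adjusted by Benjamini-Hochberg. The script was tested on simulated data. Fragments were recovered for 34 helicases above 0 in at least 3 libraries, with scales set on mitochondrial mRNAs of RefSeq length. The shortest transcript length that made every count whole was used, so the fragments given are minimum values. PCR copies were not marked, so fragments are not independent molecules. NAT10 was compared by limma (difference 1.48, adjusted p = 0.754) and by an exact two-sided permutation test (p = 0.4, smallest possible 0.1).

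Named genes were those past the test, those whose groups did not overlap, the 12 of highest mean, the most abundant of each role list, and all with a peak. Other members were named by difference or count to account for the list, chosen after their values were seen. Levels of paralogs and of genes with pseudogenes or antisense partners are uncertain: of 33 such noncoding DDX and DHX genes, 4 were above 0, and DDX12P, a copy of DDX11, had FPKM 27.9, 4.65 and 0.396 in shNC and 0 elsewhere.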

Additional observations from a re-analysis of the deposited data

How the results depend on the processing

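No helicase passed under the 16 alternatives, of which 1 left a single library labelled shNAT10, assumed to vary like the others, and called 0 of 9745 genes, so it says nothing about calls. Of 325 values of the 21 named helicases under them, 303 kept their direction and 22 reversed, and 12 helicases never reversed. DDX50 and DDX60 are among the 12. Without the library that held most of its FPKM, each of these fell below the filter and had no value. With 1 library left out, 17 of the 21 differences moved by over 1.5 times, a count that lacks DDX50 and DDX60 without their highest library. Without replicates 2 and 3 labelled shNAT10, the alternative with a single library, chosen after seeing the data, the differences were 0.0839 for DDX17, 0.71 for DDX27, -0.95 for DDX54, 1.51 for DDX56, -1.09 for DHX16, -1.40 for DHX37, 1.84 for DHX9 and -1.81 for NAT10, the helicase median was -0.95, and 0 genes of the whole table passed. Leaving out 1 library at a time gave -0.765 to -0.0294 for the median, with -0.765 without replicate 1 or 2 labelled shNAT10, and ranges of -1.08 to 0.0839 for DDX17, -1.25 to 1.49 for DDX46, -0.88 to 1.23 for DDX56, -0.33 to 1.28 for DHX32 and -1.40 to 1.34 for DHX37. The helicase median reversed to 0.45 under quantile normalization and 0.10 with a mean of at least FPKM 5, and was below 0 under all other alternatives. DDX56 was 0.63 under quantile normalization, and DHX37 was -0.61 and -2.41 with pseudocounts of 0.1 and 0.01. Calls over all genes, 20 in the reported fit, were 7 with a pseudocount of 0.01, 0 with no filter, 10 with a mean of at least FPKM 5, and 1 to 34 with 1 library left out. With the replicate block they were 21, with 0 helicases. Same-numbered deviations correlated at 0.00, -0.02 and 0.01. With replicates this far apart, such values cannot tell whether same-numbered libraries were prepared together, and the labels do not say. Helicases with a peak were 5 of the 8 at a deposited FDR of at most 0.01, and also 5 with a deposited feature of 3′ UTR or coding sequence only. The causes were not tested. Depth limits the libraries labelled shNAT10 most, where 1 fragment weighs more in FPKM.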
